A study of Mus musculus with 12 samples.

Results

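Lipid droplets store triglyceride in hepatocytes, and the genes described here encode proteins that coat those droplets, join them together or release their fat: Plin2, Plin4, Plin5, Cideb, Cidec, Pnpla2, Pnpla3, Hsd17b13, G0s2 and Abhd5. The 10 genes were chosen by function, with earlier results of these data known. Of these, 9 were measured among the 12086 genes of the table, and Pnpla3 is not analysed here. All 9 passed the filter on low values, as did every other gene of the table.

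Liver RNA was sequenced from wild type male C57BL/6 offspring killed fasted at 12 weeks of age (postnatal day 84). Dams ate a control chow (RM1, with 7% simple carbohydrate and 3% lipid by weight) or an obesogenic one, in which 20% was lipid and 10% simple carbohydrate, and had condensed milk, sweetened, beside it (55% simple carbohydrate, 8% lipid and 8% protein). Litters were brought to 6 pups on day 3, and sons were weaned onto either diet on day 21. The first letter of a group names the diet of the dam and the second that of the son. CC (3 libraries) is control after control, CO (2 libraries) is obesogenic after a control-fed dam, OC (3 libraries) is control after an obesogenic-fed dam, and OO (3 libraries) is obesogenic in both. The labels list 3 samples in each group, and 1 CO sample is not analysed here. Values are scaled counts, that is counts divided by 1 factor per library, close to CPM (counts scaled to a common library total). The depth recovered from the values ran from 3976158 reads in OO.1 to 7969056 in OC.0, apart from 27837616 in OO.0.

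As background, perilipins sit on the droplet surface and limit the access of lipases, of which ATGL, encoded by Pnpla2, takes the initial fatty acid from a triglyceride, helped by ABHD5 and held back by G0S2. Proteins of the CIDE family bring droplets into contact and let lipid pass between them. Several of these genes are known targets of the fatty acid sensing PPAR receptors, which bind DNA together with RXR.

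RefSeq promoter windows of the GRCm38.p6 assembly, from 250 bases before to 50 bases after a start, matched all 9 measured genes and gave 11 windows. The letters AGGTCA, the receptor half-site, were searched on both strands, and so were CACGTG, an E-box, and AGGTCANAGGTCA, the spaced repeat known for PPAR with RXR, which holds the half-site at both ends. AGGTCA stood in 5 of the 11 windows, belonging to Abhd5, Hsd17b13, Plin2 and Plin5 (2 windows), against 16.3% of all 32851 promoter windows. CACGTG stood in the Plin2 window alone, against 7.15% of all windows, and the spaced repeat in 0 of the 11, against 0.0396%. The windows of the 3 genes whose levels are compared most closely below are printed with the matched letters in capitals (TGACCT is AGGTCA read on the other strand). They are chr5:103977339-103977638 for Hsd17b13, chr17:56117499-56117798 for the first of the Plin5 starts and chr4:86670010-86670309 for Plin2, all on the minus strand. The matches describe letters and are not evidence of binding.
Hsd17b13: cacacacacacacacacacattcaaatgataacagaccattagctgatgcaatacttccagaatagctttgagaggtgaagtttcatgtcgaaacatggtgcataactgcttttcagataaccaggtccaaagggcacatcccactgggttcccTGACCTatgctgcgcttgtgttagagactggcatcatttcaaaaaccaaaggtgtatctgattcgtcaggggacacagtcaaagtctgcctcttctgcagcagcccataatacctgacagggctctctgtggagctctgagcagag
Plin5: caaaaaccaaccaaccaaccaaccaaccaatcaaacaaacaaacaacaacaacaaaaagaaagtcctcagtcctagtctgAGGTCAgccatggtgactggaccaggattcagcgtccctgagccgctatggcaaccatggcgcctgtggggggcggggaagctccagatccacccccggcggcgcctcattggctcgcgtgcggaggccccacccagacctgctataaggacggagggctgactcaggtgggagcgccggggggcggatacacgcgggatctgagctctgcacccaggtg
Plin2: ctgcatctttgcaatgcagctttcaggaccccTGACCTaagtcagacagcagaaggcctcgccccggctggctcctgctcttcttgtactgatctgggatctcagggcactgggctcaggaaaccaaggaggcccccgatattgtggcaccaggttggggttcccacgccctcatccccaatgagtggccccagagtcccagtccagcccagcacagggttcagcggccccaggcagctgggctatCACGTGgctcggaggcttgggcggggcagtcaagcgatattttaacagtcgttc

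No measured gene of the group passed an adjusted p of 0.05 in limma's test with Benjamini-Hochberg adjustment over all genes, in any of 7 comparisons, in which limma called between 0% and 3.96% of all genes. At an unadjusted p under 0.05 in limma there were 0 to 3 of the 9 per comparison, against 4.56% to 19.4% of all genes. The edgeR test called 0 of the 9 in all 7, where it called 0 to 504 of the 12086 genes. DESeq2 called 2 of the 9 in 2 of the comparisons, where it called 3.78% and 6.52% of all genes. The closest were Hsd17b13 and Plin5, whose levels were below every CC library in both CO libraries, as were those of 17.9% of all genes. In bulk liver, fewer cells of a type and less RNA per cell cannot be told apart. The p-values set differences between group means against the spread of libraries within groups, and the labels do not tie animals to litters.

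**Figure D1:**
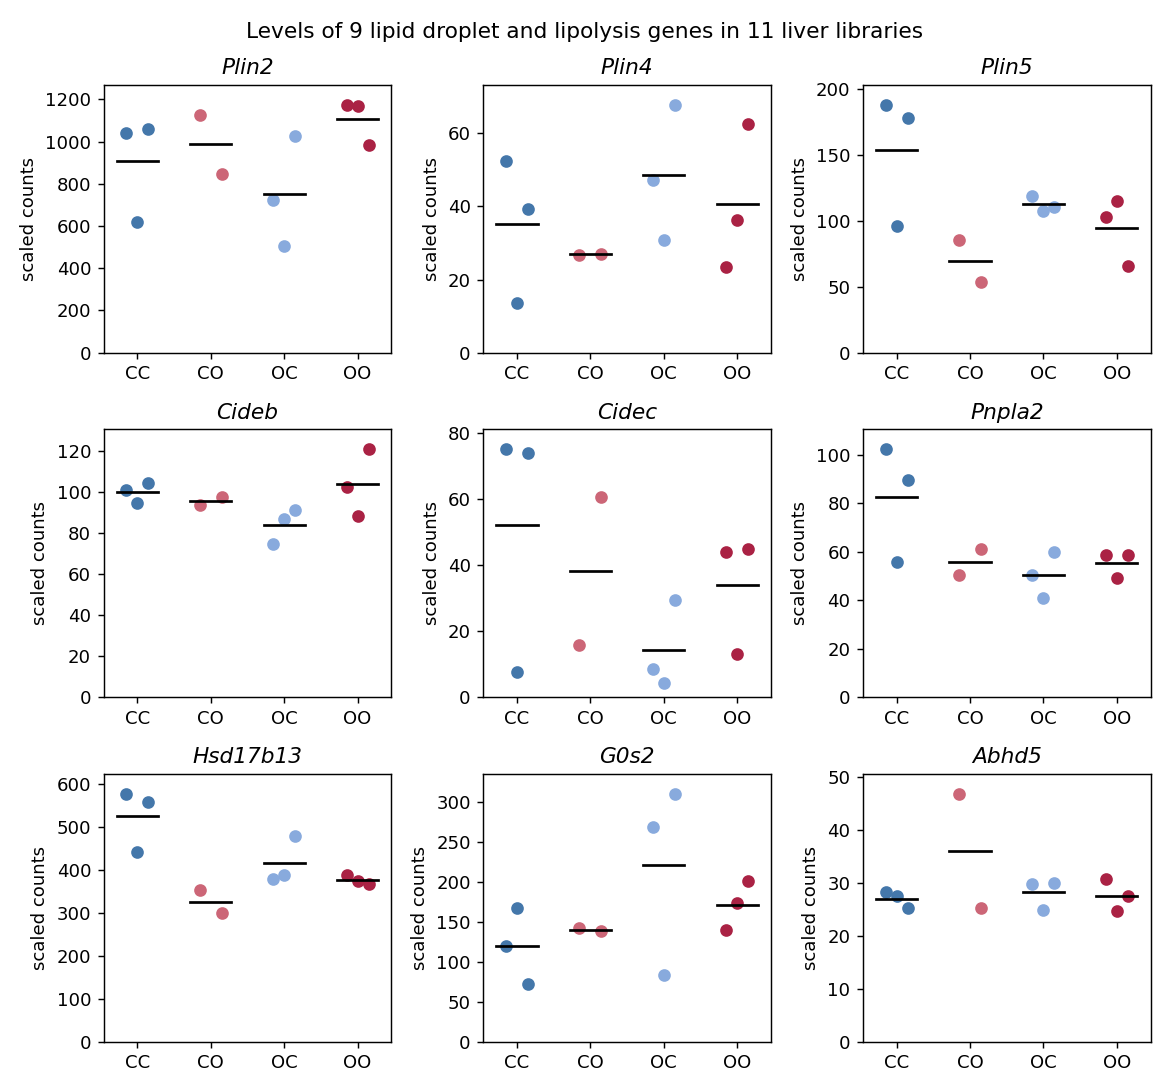
Scaled counts (vertical axes, from 0) of the 9 measured genes in the 4 groups (horizontal axes); points are single libraries and bars are group means. Hsd17b13 is lower in both CO libraries than in the other 9 libraries, while Cidec, Plin4 and G0s2 spread widely within groups.

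Some libraries differed from the rest of their group in transcripts of other tissues or of the acute phase. Summed levels of 14 measured exocrine pancreas markers of 16 were 7.601 to 1004 in CC, 107.4 to 4281 in CO, 26.46 to 6732 in OC and 16.83 to 140.8 in OO; the highest were OC.0, CO.1 and CC.1. Sums of 10 acute phase transcripts of 11 were 5663 to 6578 in CC, 9827 to 38245 in CO, 5042 to 24533 in OC and 6996 to 8370 in OO. They were highest in CO.1 and OC.1, and both CO libraries lay above every CC library. In CO against CC all 10 were above 0, and limma called 2 of them, where it called 1.79% of all genes. Hepatocyte markers (8 of 9 measured, none of them at 0) summed to 55900 to 60771 in CC, 53747 to 56442 in CO, 50443 to 51764 in OC and 44255 to 51235 in OO. By these sums every library after an obesogenic-fed dam lay below every library after a control-fed dam, but a sum mostly follows its most abundant genes. For the average effect of the dams' diet, 2 of the 8 markers were above 0 and 6 below, with a median log2 difference of -0.16, and limma called 0. For that of the sons' diet 2 of the 8 were also above 0 and 6 below, with a median of -0.10. There limma called 2 lower, Tat (-1.23, limma adjusted p = 0.0149) and Cps1 (-1.06, limma adjusted p = 0.0318), where it called 3.96% of all genes. Of 10 adipocyte markers, 3 (Fabp4, Cfd and Car3) were measured and none was at 0, with sums of 170.8 to 909.5 in CC, 271.1 to 1089 in CO, 562.8 to 817.5 in OC and 559.9 to 2951 in OO; the defining markers Adipoq and Plin1 are not analysed here. Macrophage markers (13 of 13) summed to 467.3 to 621.3 in CC, 715.8 to 747.2 in CO, 543.9 to 842.5 in OC and 791.1 to 797.5 in OO. Stellate cell markers (8 of 8) summed to 380.3 to 387.4 in CC, 469.3 to 473.7 in CO, 405.9 to 494.1 in OC and 433.5 to 620.8 in OO. By both of these sums the CO libraries lay above every CC library. Skeletal muscle markers (10 of 14) summed to 8.007 to 564.3, highest in OO.0, with up to 5 of them at 0 in a library. The part of these transcripts in the levels below was not tested, except where a value without the libraries is given.

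Among the coat genes, Plin2 encodes the perilipin that covers most droplets of the hepatocyte, and it was the most abundant of the 9 genes per transcript length (mean 495.3 scaled counts per kb, against 6.742 for Plin4). Plin2 read 1043, 620.6 and 1060 scaled counts in CC, 1128 and 846.8 in CO, 723.9, 507.4 and 1029 in OC, and 1175, 1168 and 985.3 in OO. The OO libraries were the most even of these groups and the OC and CC libraries overlapped with them, with the lowest values in OC.1 and CC.1. OO was above OC by 0.61 on the log2 scale (SE 0.27, 95% interval 0.03 to 1.2), which limma with Benjamini-Hochberg adjustment did not call (adjusted p = 0.601). CO against CC gave 0.15 (interval -0.51 to 0.81), and the average over both kinds of dam was 0.38 (SE 0.20, limma adjusted p = 0.337).

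Plin5, the perilipin of oxidative tissues, holds droplets near mitochondria and binds ATGL and ABHD5. Its scaled counts were 187.7, 95.55 and 177.4 in CC, 85.51 and 53.48 in CO, 118.8, 107.5 and 110.5 in OC, and 102.6, 114.5 and 65.69 in OO. Both CO libraries lay below all 3 CC libraries, although CO.0 and CC.1 were close, and OC and OO overlapped. The CO mean was 69.50 ± 22.65 (SD, n = 2) against 153.6 ± 50.49 (SD, n = 3) in CC. The log2 difference was -1.12 (SE 0.30, 95% interval -1.78 to -0.45, limma adjusted p = 0.0937). In OO against OC it was -0.29 (SE 0.27, interval -0.88 to 0.31, limma adjusted p = 0.857), and the average of both was -0.70 (SE 0.20, limma adjusted p = 0.0805). The value moved when single libraries were left out. Without CC.1 the CO against CC difference was -1.43 (limma adjusted p = 0.0307) and the average effect -0.86 (limma adjusted p = 0.0216), both past the threshold. The CO against CC difference was -1.45 without CO.0 and -0.78 without CO.1. DESeq2 also called Plin5 in CO against CC (adjusted p = 0.0123) and edgeR's quasi-likelihood test did not (adjusted p = 0.0983).

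Plin4 encodes a long perilipin known mostly from adipose tissue. Its scaled counts were 52.31, 13.65 and 39.25 in CC, 26.84 and 27.07 in CO, 47.11, 30.72 and 67.82 in OC, and 23.31, 36.22 and 62.58 in OO. Both CO libraries lay below all 3 OC libraries and the other pairs of groups overlapped, and the within-group SD of 0.72 on the log2 scale was larger than that of 97.7% of all genes (median 0.22). The maternal diet gave an average log2 difference of 0.53 (SE 0.35, interval -0.23 to 1.29, limma adjusted p = 0.828). Plin4 shares bases with Hdgfl2 on the opposite strand, and its value is uncertain, since no source used here states whether the counting used strand.

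Hsd17b13 encodes a droplet enzyme of hepatocytes that acts on retinol and other lipids, and its within-group SD of 0.16 on the log2 scale was below the median of all genes (0.22). Its scaled counts were 577.0, 442.1 and 557.1 in CC, 351.9 and 299.3 in CO, 377.6, 389.0 and 478.1 in OC, and 387.1, 373.3 and 367.3 in OO. Both CO libraries were below the other 9, CC.0 and CC.2 were above them all, and OC and OO overlapped. CO averaged 325.6 ± 37.19 (SD, n = 2) and CC 525.4 ± 72.84 (SD, n = 3). The log2 difference was -0.68 (SE 0.16, 95% interval -1.03 to -0.34, limma adjusted p = 0.0546), just outside the threshold. Without CC.1 it was -0.80 (limma adjusted p = 0.0394), and without CO.1 it was -0.57. Leaving out CO.0 moved it as far the other way, since CO.0 and CO.1 lay 0.117 above and below the CO mean on the log2 scale. DESeq2 called Hsd17b13 in CO against CC (adjusted p = 0.00349) where edgeR did not (adjusted p = 0.0688). In OO against OC the difference was -0.13 (SE 0.14, interval -0.44 to 0.18, limma adjusted p = 0.873). The difference between these effects, the interaction, was 0.55 (SE 0.21, interval 0.09 to 1.01), with an unadjusted p of 0.0242 in limma and an adjusted p of 0.936. The average effect of the sons' diet was -0.41 (SE 0.11, limma adjusted p = 0.0544). OC against CC was -0.34 (SE 0.14, limma adjusted p = 0.923).

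**Figure D2:**
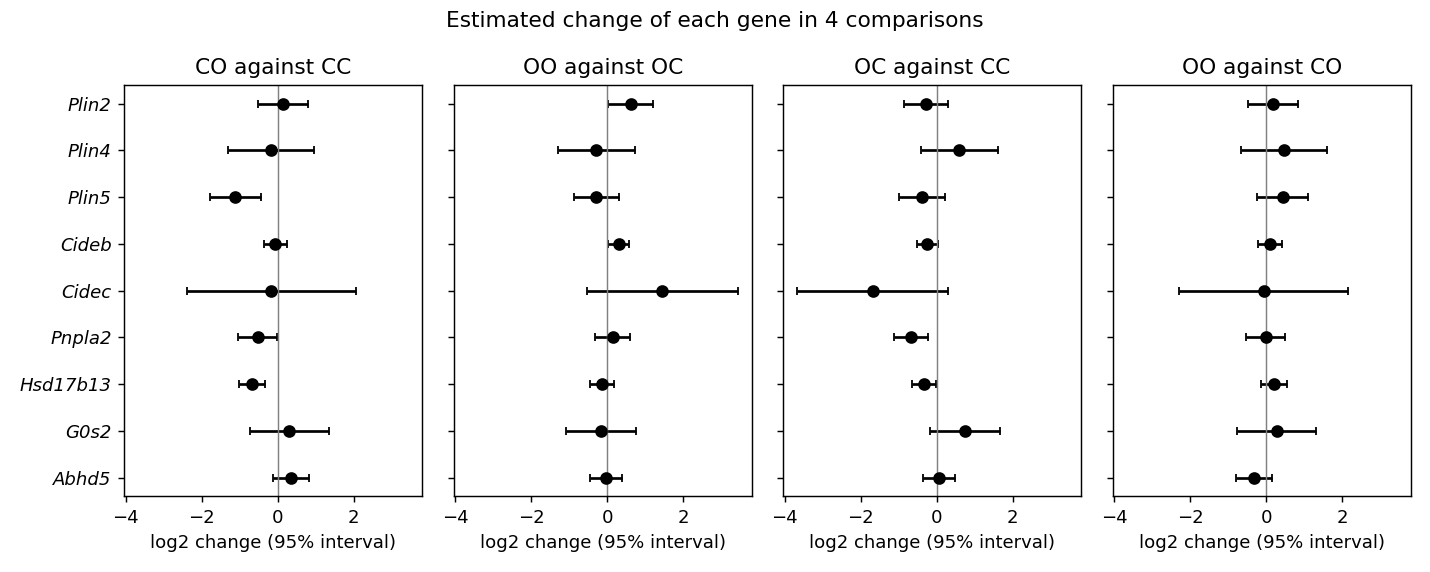
Log2 difference (horizontal axes) of each gene (vertical axis) in 4 comparisons from limma's fit to all 11 libraries; points are estimates and bars 95% intervals. In CO against CC the intervals of Plin5 and Hsd17b13 lie farthest below 0, and the interval of Cidec is the widest in each comparison.

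The profile of Hsd17b13 over the 11 libraries was most like those of Rnf139 (Pearson r 0.954), Uqcr10 (0.948) and Uqcrfs1 (0.938), out of 9318 candidate genes with a mean of at least 5. Rnf139 encodes a ubiquitin ligase of the endoplasmic reticulum, and Uqcr10 and Uqcrfs1 encode subunits of respiratory complex III. Rnf139 read 67.05, 56.29 and 61.78 scaled counts in CC, 49.51 and 41.69 in CO, 47.93, 53.68 and 59.75 in OC, and 46.56, 47.00 and 47.06 in OO. As with Hsd17b13, CC.0 was highest and CO.1 lowest for all 3 genes. These correlations describe 11 libraries of 4 groups and were picked as the highest, so no test is attached to them.

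Of the CIDE genes, Cideb, which also serves the loading of fat onto lipoproteins, was steady and Cidec was not. Cidec, which drives the growth of large droplets and is known to rise in fatty liver, read 74.98, 7.480 and 73.80 scaled counts in CC, 15.67 and 60.69 in CO, 8.576, 4.410 and 29.51 in OC, and 44.05, 13 and 44.77 in OO. CC, CO and OO each held a library at 15.67 or lower and another at 44.77 or higher, while OC reached 29.51, and the highest library was 17.00 times the lowest, OC.1, where 29 reads were recovered. Its within-group SD of 1.43 on the log2 scale was above that of 99.5% of genes. OC against CC was -1.69 (SE 0.91, interval -3.68 to 0.30, limma adjusted p = 0.923), an interval that holds both no difference and a large one.

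Cideb scaled counts were 100.8, 94.81 and 104.5 in CC, 93.68 and 97.58 in CO, 74.48, 86.83 and 91.02 in OC, and 102.2, 88.48 and 120.8 in OO. All OC libraries lay below all CC libraries, and OO overlapped with every group. OC against CC was -0.25 (SE 0.13, limma adjusted p = 0.923) and OO against OC 0.30 (SE 0.13, limma adjusted p = 0.59). Cideb overlaps Nop9 on the opposite strand, so its value carries the same uncertainty as that of Plin4.

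Pnpla2, the lipase gene, read 102.2, 55.91 and 89.41 scaled counts in CC, 50.34 and 61.12 in CO, 50.16, 41.06 and 59.89 in OC, and 58.48, 48.94 and 58.66 in OO. CC.0 and CC.2 were the highest of all libraries, while CC.1 lay among the other groups. OC against CC was -0.68 (SE 0.21, interval -1.14 to -0.22), with an unadjusted p of 0.00735 in limma and an adjusted p of 0.923. CO against CC was -0.52 (SE 0.23, limma adjusted p = 0.286), and OO against OC 0.15 (SE 0.21, limma adjusted p = 0.914).

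Pnpla2 and Cidec ranked the libraries of each group in the same order in all 4 groups. Over deviations from group means in 11 libraries, Pearson's r was 0.964 and Spearman's rho 0.991, and r was 0.936 without CC.1 and OC.1, whose Cidec deviations lay farthest from the median deviation. This pair was picked as the highest of 36 after its values were seen and is given as a description.

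Abhd5, the lipase's coactivator, lay between 24.61 and 30.79 scaled counts in 10 libraries, with 46.84 in CO.0 alone. CO against CC was 0.35 (SE 0.21, interval -0.12 to 0.81, limma adjusted p = 0.445), and without CO.0 it was -0.09. Abhd5 overlaps A730085K08Rik on the opposite strand, so its value is uncertain too.

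G0s2, the lipase's inhibitor, read 119.7, 167.7 and 72.83 scaled counts in CC, 142.2 and 138.4 in CO, 268.9, 83.03 and 310.6 in OC, and 140.4, 173.6 and 201.0 in OO. OC held both the highest libraries and the next to lowest, OC.1. OC against CC was 0.75 (SE 0.42, interval -0.18 to 1.68, limma adjusted p = 0.923), and the average effect of the dams' diet 0.51 (SE 0.32, limma adjusted p = 0.822). Its within-group SD of 0.66 exceeded that of 97.2% of genes.

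The same libraries were low for many of the genes. CC.1 was the lowest CC library for 7 of the 9, all but G0s2 and Abhd5, and the highest for G0s2. OC.1 was the lowest OC library for 7 of the 9, and OC.2 the highest for 8. The matching shares over all genes were not counted, so these orders cannot be called particular to the 9 genes. CC.1 held the most pancreas transcripts of CC (1004) and OC.1 the most acute phase transcripts of OC (24533). Yet OC.0, with more pancreas transcripts (6732), was the lowest OC library for 2 of the 9. CO.1, high in both pancreas (4281) and acute phase transcripts (38245), was the lowest CO library for 5 and the highest for 4. Whether these transcripts bear on the droplet genes was not tested.

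**Figure D3:**
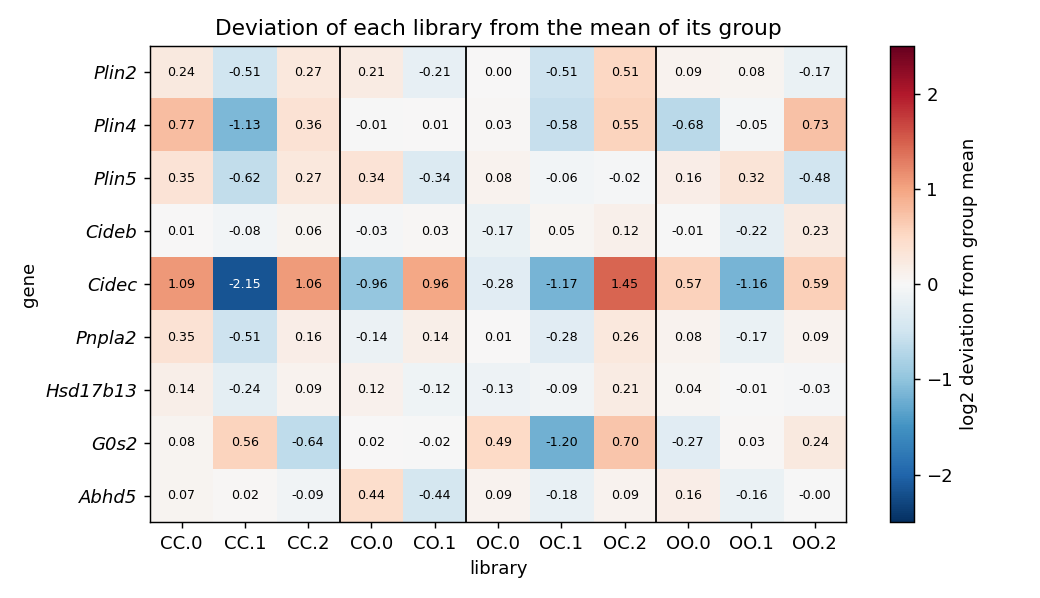
Log2 deviation of each library (horizontal axis) from its group's mean for each gene (vertical axis); red is above and blue below the mean, and vertical lines part the groups. The CC.1 and OC.1 columns are mostly blue, and Cidec in CC.1 lies farthest from its group mean.

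Counted by comparison, limma with Benjamini-Hochberg adjustment called 0 of 9 genes in CO against CC, where it called 1.79% of all genes, and 3 of 9 had an unadjusted p under 0.05 (16.8% of all genes). There, 2 of the 9 had CO libraries wholly below CC, against 17.9% of all genes. OO against OC gave 0 calls (0.165% of all genes) and 2 genes under the unadjusted 0.05 (8.01%), OC against CC 0 calls (0% of all genes) and 2 (5.26%), and OO against CO 0 calls (0.0414%) and 0 (5.92%). In OO against OC, none of the 9 had groups that did not overlap (12.7% of all genes). In OC against CC, Cideb was the one gene of the 9 with groups that did not overlap and lay lower (6.14% of all genes), and in OO against CO, Hsd17b13 was the one that lay higher (10.5%).

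For the average effect of the sons' diet limma called 0 of the 9 (3.96% of all genes), with 2 at an unadjusted p under 0.05 (19.4%). For the average effect of the dams' diet it called 0 (0.0331%) with 0 unadjusted (6.13%), and for the interaction 0 (0.0331%) with 1 unadjusted (4.56%). The edgeR test called 0 of the 9 in all 7 comparisons. Of all 12086 genes it called 156 in CO against CC, 504 on average over the sons' diet and 0 to 23 in the other 5. At most 3 of the 9 had an unadjusted edgeR p under 0.05 in any comparison, and that share was not counted over all genes. DESeq2 called 2 in CO against CC (3.78% of all genes), 2 in the average effect of the sons' diet (6.52%) and 0 in the other 5. The median log2 difference of the 9 genes was -0.17 in CO against CC, -0.03 in OO against OC, -0.29 in OC against CC and 0.18 in OO against CO. It was 0.07 for the average effect of the sons' diet, -0.06 for that of the dams' diet and 0.47 for the interaction, and the medians of all genes lay between -0.01 and 0.01 in all 7. Comparisons that share a group are not independent of each other: each group enters more than 1 of them.

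Ratios within a library set the genes against each other. The ratio of Plin2 to Plin5 (0.5 added to each) was 5.543, 6.467 and 5.962 in CC, 13.12 and 15.70 in CO, 6.074, 4.703 and 9.271 in OC, and 11.41, 10.16 and 14.89 in OO. All 5 libraries of obesogenic-fed sons (10.16 to 15.70) lay above all 6 of control-fed sons (4.703 to 9.271), after either kind of dam. None of the 9 genes alone parted the libraries in this way, against 3.84% of all genes. Over all 36 pairs of the 9 genes, 3 did: Plin2 to Plin5, Plin2 to Hsd17b13 and Cideb to Hsd17b13, each higher in obesogenic-fed sons. The count over pairs and the shares that follow were added after the ratio had been seen. The ratio of Plin2 to another gene was wholly higher in obesogenic-fed sons for 3.62% of genes, and that of another gene to Plin5 for 5.60%. These shares count higher ratios alone, while the count over the 36 pairs took either direction. No share was counted for ratios to Hsd17b13 or for pairs of genes in general, so the 3 pairs have no matching background.

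The other ratios overlapped between the sons' diets. G0s2 to Pnpla2, inhibitor to lipase, ran from 0.816 to 5.318 in control-fed and from 2.254 to 3.522 in obesogenic-fed sons. Abhd5 to Pnpla2, coactivator to lipase, ran from 0.281 to 0.608 and from 0.419 to 0.931. Cidec to Cideb ran from 0.056 to 0.745 and from 0.152 to 0.624.

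**Figure D4:**
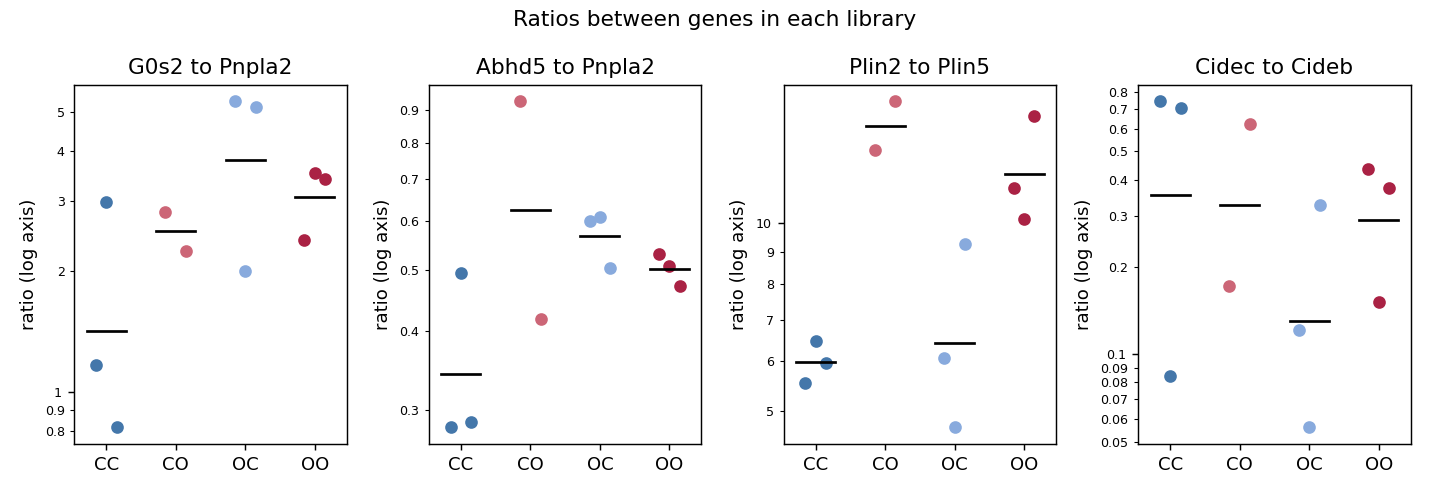
Ratio of 4 gene pairs (vertical axes, log scale) in each library of the 4 groups (horizontal axes); points are libraries and bars geometric means. For Plin2 to Plin5 the CO and OO points, 10.16 to 15.70, lie above every CC and OC point, 4.703 to 9.271, and the other ratios overlap.

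Other genes of droplets and lipolysis were taken from a list of 25, of which 23 were measured. For the average effect of the sons' diet limma called 1 of the 23 lower and 0 higher, a share near the 3.96% of all genes called, with a median log2 difference of 0.01 beside -0.00 over all genes. The one that fell was Acsl3, an acyl-CoA synthetase that primes fatty acids at forming droplets (-0.66, SE 0.15, limma adjusted p = 0.036). It was called in none of the simple comparisons, and the call was lost without CC.1, CC.2, CO.0, CO.1, OC.0, OC.1, OC.2 or OO.0 (limma adjusted p between 0.0513 and 0.0851). Those next in order were Ddhd2, a triglyceride hydrolase (-0.46, SE 0.16, limma adjusted p = 0.138), Ces1d, a hydrolase of the endoplasmic reticulum (-1.0, SE 0.36, limma adjusted p = 0.147), and Tmem159, a droplet assembly factor also called LDAF1 (-0.70, SE 0.27, limma adjusted p = 0.183). Ces1d read 138.8 scaled counts in CO.1 and 498.3 to 1237 elsewhere. Tmem159 was low, at 0.553 to 2.805 scaled counts, with 2 reads recovered in OO.1, so its difference rests on few reads.

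Of the 13 genes of triglyceride synthesis listed, 11 were measured, and limma called 0 of them in each of the 7 comparisons, with 4 at an unadjusted p under 0.05 in CO against CC (16.8% of all genes) and 2 in the average effect of the sons' diet (19.4%). Their median log2 difference in that comparison was -0.14. The smallest p-values belonged to the acyltransferases Gpat4 (-0.34, SE 0.15, limma adjusted p = 0.244) and Gpat3 (-0.52, SE 0.23, limma adjusted p = 0.246), followed by the phosphatidate phosphatase Lpin1 (-0.50, SE 0.26, limma adjusted p = 0.32) and Dgat1, which makes triglyceride (-0.19, SE 0.11, limma adjusted p = 0.37). The average of Gpat3 joined a difference of -1.31 in CO against CC (SE 0.34, limma adjusted p = 0.0843) and one of 0.28 in OO against OC (SE 0.31, limma adjusted p = 0.884), with an interaction of 1.59 (SE 0.46, limma adjusted p = 0.936).

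Of the 12 regulators and hepatic fat genes listed, all were measured, and limma called 1 higher and 1 lower both in CO against CC and in the average effect of the sons' diet. Tm6sf2, which serves the loading of triglyceride onto lipoproteins, fell. Its scaled counts were 29.96, 26.37 and 25.98 in CC, 10.33 and 12.88 in CO, 22.67, 26.92 and 26.13 in OC, and 11.19, 16.87 and 20.10 in OO. All 5 libraries of obesogenic-fed sons were below all 6 of control-fed sons. The log2 difference was -1.21 in CO against CC (SE 0.21, limma adjusted p = 0.0227), -0.67 in OO against OC (SE 0.19, limma adjusted p = 0.314) and -0.94 on average (SE 0.14, limma adjusted p = 0.00521). The call in CO against CC was lost without CC.0, CC.2, CO.0 or CO.1 (limma adjusted p between 0.0744 and 0.091), and the call on average was kept without any single library.

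Mlxipl encodes ChREBP, the carbohydrate response factor that acts at E-boxes with a partner. It rose in CO against CC (0.86, SE 0.19, limma adjusted p = 0.048) and on average (0.57, SE 0.13, limma adjusted p = 0.033). In OO against OC the groups overlapped, with a difference of 0.28 (SE 0.17, limma adjusted p = 0.764). OC against CC was 0.52 (SE 0.17, limma adjusted p = 0.923). The first call was lost without CC.0, CC.2, CO.0, CO.1, OC.0, OC.2 or OO.0 (limma adjusted p between 0.0622 and 0.17). The call on average was lost without CC.0, CC.2, CO.0, CO.1, OC.0, OC.1, OO.0 or OO.1 (limma adjusted p between 0.0531 and 0.0875). The coactivator Ppargc1a was at -0.53 on average (SE 0.16, limma adjusted p = 0.0982) and Rxra, the partner of PPAR, at 0.34 (SE 0.11, limma adjusted p = 0.132).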

How the data were processed

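The deposited values are a signal, gene counts divided by 1 factor per library. The authors' file calls them CPM, yet its columns sum to 929699 to 1099404. Bowtie 1.2.3 and mm8 are named in the submitters' processing notes; for the counter, the annotation, strand and scaling nothing is stated in the sources used here. Low values gave the worth of 1 read in each library, and 95.00% to 97.33% of values came out as whole reads (tolerance 0.01). A floor of 3 reads lay between 0.100 and 0.829 scaled counts, for counting error only. Column names gave a group and not a sample, so library numbers pair nothing. Gene symbols matched 11965 of 12086 genes.

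Differences were tested with limma 3.58.1 (R 4.3.3) and its intensity trend, using log2 of the value plus 0.5, in 1 model of group means over the 11 libraries. Genes needed a value of 1 or more in 3 libraries, and none was lost. P-values were adjusted over all genes by Benjamini-Hochberg, with a threshold of 0.05. Changes of low genes are understated on this scale. The planned design had taken the values for CPM of 12 samples; its test was used unaltered. The members and lists were chosen with earlier results of these data known. The genes named are all members, every list gene past the threshold, up to 4 of each pathway list with the smallest p in the average effect of the sons' diet, and the 3 genes most like 1 member. For the last, Hsd17b13 had the smallest p there and was used, since no member passed the threshold.

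Alternatives on recovered reads, as whole numbers, were edgeR 4.0.16 (quasi-likelihood, calling 156 genes in CO against CC) and DESeq2 1.42.0 (456 genes). Alternatives within limma were pseudocounts of 0.1 and 2, scaling by quantiles or by median of ratios, a mean of at least 5 (9782 genes), no filter, a robust prior, weights per library, fits to the compared groups alone, and leaving out single libraries or those high in pancreas (OC.0 and CO.1) or acute phase transcripts (OC.1 and CO.1). A fit without 6 genes listed at 0 in a whole group was added after seeing the data. The test was also checked on simulated reads, with the same spread setting for every gene and no outlying libraries. That check does not cover genes or libraries as uneven as some of these.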

Additional observations from a re-analysis of the deposited data

How the results depend on the processing

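With 2 or 3 libraries a group, a difference must be well above the spread to be called, and in CO with 1 library left out the lone library is assumed to vary like the other groups. Of 63 log2 differences (9 genes in 7 comparisons), 42 kept their sign in every alternative run and 21 did not, and 4 were called in at least 1 alternative: Plin5 and Hsd17b13 in CO against CC and on average over the sons' diet. In CO against CC the 0 genes called became 2 with DESeq2 and 1 with sample weights (456 and 215 of all genes, against 216). Leaving out single libraries of CC, OC or OO gave 0 to 2 of the 9, with 19 to 233 of all genes called. The 2 came without CC.1 (213 of all genes). The fits without CC.0 and without CC.2 called 23 and 19 of all genes, so 0 of the 9 says little there. On average over the sons' diet the 0 genes called became 2 with DESeq2 and 2 with sample weights (770 and 747 of all genes, against 479). Leaving out single libraries of CC, OC or OO gave 0 to 2 of the 9 there, with 253 to 483 of all genes called. Again the 2 came without CC.1 (483 of all genes). In the other 5 comparisons the count was 0 in every alternative. No paired analysis was run, since the labels pair no animals across groups.

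Signs turned as follows, and the cause was not tested. With edgeR and DESeq2, G0s2 on average over the sons' diet was -0.07 in both (-0.070 and -0.072), Plin5 on average over the dams' diet -0.008 and -0.010, and Plin4 in the interaction 0.115 and 0.109. Quantile scaling gave 0.010 for Pnpla2 in OO against CO and 0.011 for Plin2 on average over the dams' diet. Sample weights gave 0.026 for Abhd5 in OO against OC, 0.246 for Cidec and 0.038 for Pnpla2 in OO against CO, and -0.017 for G0s2 on average over the sons' diet. Without OC.0 and CO.1, G0s2 and Abhd5 in OO against OC were 0.080 and 0.013, Plin2, Cidec and Pnpla2 in OO against CO were -0.029, 0.896 and 0.131, and Plin5 on average over the dams' diet was -0.165. Without OC.1 and CO.1, Plin2, Cidec and Pnpla2 in OO against CO were again -0.029, 0.896 and 0.131, Cidec and G0s2 on average over the sons' diet were -0.134 and -0.221, and Plin5 over the dams' diet -0.129.

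Leaving out single libraries gave these ranges across 0. In CO against CC, Plin2 ran from -0.105 to 0.355, Plin4 from -0.739 to 0.211, Cidec from -1.251 to 0.785, G0s2 from -0.014 to 0.585 and Abhd5 from -0.092 to 0.783. In OO against OC, Plin4 ran from -0.658 to 0.045, G0s2 from -0.765 to 0.184 and Abhd5 from -0.118 to 0.049. In OO against CO, Plin2 ran from -0.029 to 0.385, Cideb from -0.008 to 0.215, Cidec from -1.024 to 0.896, Pnpla2 from -0.147 to 0.131 and Abhd5 from -0.757 to 0.117. On average over the sons' diet, G0s2 ran from -0.230 to 0.244 and Abhd5 from -0.061 to 0.376. On average over the dams' diet, Plin2 ran from -0.181 to 0.073, Plin5 from -0.144 to 0.192 and Abhd5 from -0.351 to 0.086. In the interaction, Plin4 ran from -0.505 to 0.445 and Abhd5 from -0.812 to 0.062.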
